A study of Mus musculus with 8 samples.

Results

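The comparison described here is that of MII oocytes that overexpressed a mutant of BTG4 (the Btg4tm group, 2 libraries) with fully grown oocytes still arrested at the germinal vesicle stage (the GV group, 2 libraries). It uses 4 of the 8 libraries analysed here. The samples were chosen by their labels, and the genes are the 15962 listed in both sets of deposited tables, of which 13968 passed a filter on low values and were tested. The comparison asks which transcripts still differ from the GV level at the end of meiotic maturation when the mutant protein is present, and which exceed that level.

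All oocytes came from ICR (CD1) mice and were cultured in vitro. The GV and MII groups were not injected. The Btg4wt and Btg4tm groups were microinjected at the GV stage with capped cRNA for Myc-tagged BTG4, wild-type or with the substitutions T145A, S146A and S147A, and were collected at MII. No group carries a deletion of Btg4, and how much of the oocyte's own BTG4 protein was present beside the injected one was not measured by these data. The study states that endogenous BTG4 seemed lower when wild-type or mutant BTG4 was expressed, and leaves this to be clarified. Each library was made from 15 pooled oocytes by Smart-seq2. The labels describe 3 samples per group, of which 2 were analysed here, and nothing says that the 2 libraries of a group came from separate cultures, so p-values measure only the spread between these samples. The GV and MII tables form one set and the Btg4wt and Btg4tm tables another, so in the comparison of Btg4tm with GV the mutant protein, the injection, maturation itself and the table set cannot be told apart.

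A fully grown oocyte stores mRNA and is transcriptionally silent, so its transcript levels change in maturation through decay and through lengthening or shortening of poly(A) tails. BTG4 is an adapter that brings the CCR4-NOT deadenylase to maternal mRNAs, and its own mRNA is stored in the GV oocyte and translated in maturation. Dormant mRNAs gain tails during maturation through cytoplasmic polyadenylation elements (CPEs) near the 3′ end, which the CPEB proteins bind. Smart-seq2 starts reverse transcription from an oligo(dT) primer. A value thus reads both a transcript's share of the RNA in its library and how well its tail is primed. Fewer molecules and shorter tails cannot be told apart here.

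The mutated residues lie next to each other in the 250-codon coding sequence of Btg4 (chr9:51060901-51119875 of GRCm38, plus strand, transcript ENSMUST00000114431.3). Their codons are shown in capitals, with 15 reference bases on each side, because the substitutions define the group.
Btg4 mutated codons: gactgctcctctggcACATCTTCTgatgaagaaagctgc

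Values below are scaled TPM, that is, the deposited share of each library per transcript length (TPM) after scaling the libraries to each other by the median of ratios over genes. Fold changes are on the scale of log2(scaled TPM + 1) and were tested with limma over all 8 libraries. Genes were called at a p-value, adjusted by Benjamini and Hochberg over all genes tested, of under 0.05 together with a log2 fold change beyond 1 in either direction. Scaled TPM are relative levels, so a change in total RNA per oocyte would not show in them. Sequencing depth is unknown from TPM, so precision rests on the spread between the 2 libraries of each group, pooled over all groups. Standard errors of Btg4tm against GV thus also depend on the scatter within MII and within Btg4wt. Libraries of a group correlated across genes at r between 0.982 and 0.987, and their scaling factors lay between 0.948 and 1.11. The 12 oocyte markers summed to between 20030 and 30706 scaled TPM per library. Of the cumulus and granulosa cell list, 5 genes (Inha, Cyp19a1, Star, Lhcgr and Nr5a2) were listed in both sets, and they summed to 34.0 and 34.3 in GV and to 38.8 and 33.9 in Btg4tm. None of the blood and immune list was in both sets.

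Btg4 itself was measured at 2650 and 2794 scaled TPM in GV, 5792 and 6002 in MII, 5178 and 5510 in Btg4wt and 3725 and 4068 in Btg4tm. The Btg4tm libraries lay above both GV libraries and below all 4 other MII-stage libraries. The log2 fold change over GV was 0.52 with a standard error of 0.10 (adjusted p = 0.0172), which is under the fold threshold. Reads from endogenous mRNA and from injected cRNA are not separated in these values, so they do not check the injection.

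On this relative scale, most of the transcriptome of Btg4tm oocytes lay close to the GV level. Of the 13968 genes tested, 142 were called lower (1.02%) and 143 higher (1.02%) in Btg4tm than in GV, or 2.04% in either direction. An unadjusted p under 0.05 was reached by 4147 genes (29.7%). In uninjected MII oocytes 3351 genes were lower (24%) and 1752 higher (12.5%) than in GV, and in Btg4wt oocytes 3185 (22.8%) and 1633 (11.7%), that is, 36.5% of genes in either direction in MII and 34.5% in Btg4wt. These comparisons share the GV libraries. The 95% confidence interval of the fold change lay wholly within 2-fold for 9582 genes (68.6%) in Btg4tm against GV, for 4293 (30.7%) in MII against GV and for 4480 (32.1%) in Btg4wt against GV. The middle 50% of genes spanned log2 fold changes of -0.36 to 0.25 in Btg4tm, -0.97 to 0.68 in MII and -0.91 to 0.66 in Btg4wt.

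**Figure D1:**
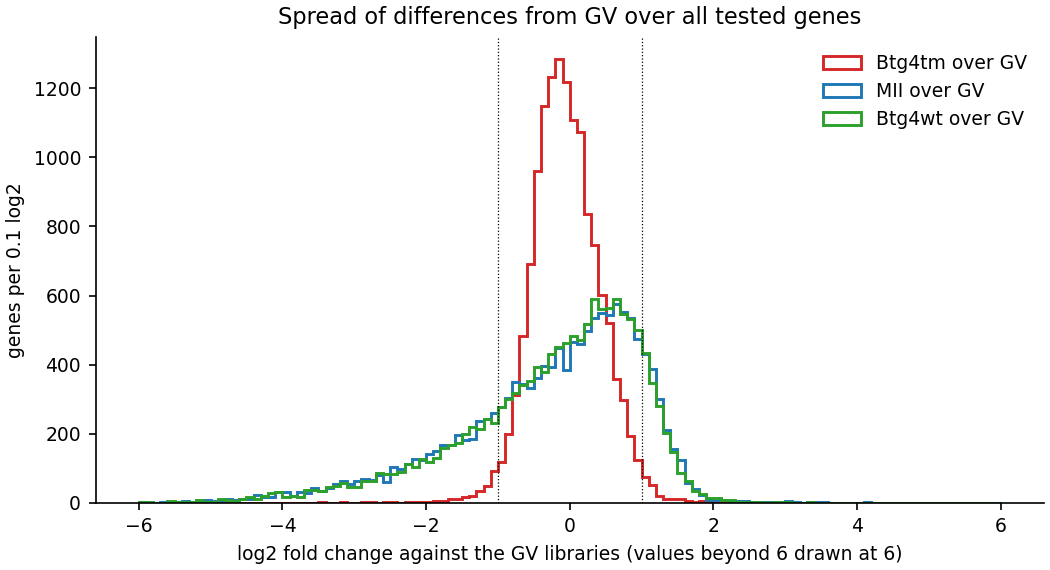
Log2 fold change against GV for the 13968 genes tested, as counts of genes per bin, for Btg4tm, MII and Btg4wt, with dotted lines at the fold threshold. The Btg4tm curve is narrow, with 68.6% of genes having an interval wholly within 2-fold of GV, against 30.7% for MII and 32.1% for Btg4wt.

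Counted without a model, 52 genes (0.372%) were at least 2-fold lower and 60 (0.43%) at least 2-fold higher in every pair of a Btg4tm and a GV library. The median over all tested genes was -0.08, and it was -0.21 on TPM as deposited, -0.02 after quantile normalization and -0.64 after scaling to the mitochondrially encoded genes. Rises made up 50.2% of the calls with the scaling used here, and 21.8%, 61.5% and 1.26% under those 3 scalings. All 142 lower calls remained under TPM as deposited and under mitochondrial scaling, and 92 under quantile normalization. Of the 143 higher calls, 80, 128 and 32 remained under TPM as deposited, quantile and mitochondrial scaling. The count of lower calls also rested on single libraries, with 24 genes called lower and 83 higher without GV replicate 2.

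The direct tests against the other MII-stage groups called more genes. Against MII, 1028 genes were lower (7.36%) and 2701 higher (19.3%) in Btg4tm, and against Btg4wt, 1109 were lower (7.94%) and 2534 higher (18.1%), or 26.7% and 26.1% of genes in either direction. Between Btg4wt and MII, which differ in injection and table set but share no library, limma called 0 genes, with 1655 genes at an unadjusted p under 0.05.

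**Figure D2:**
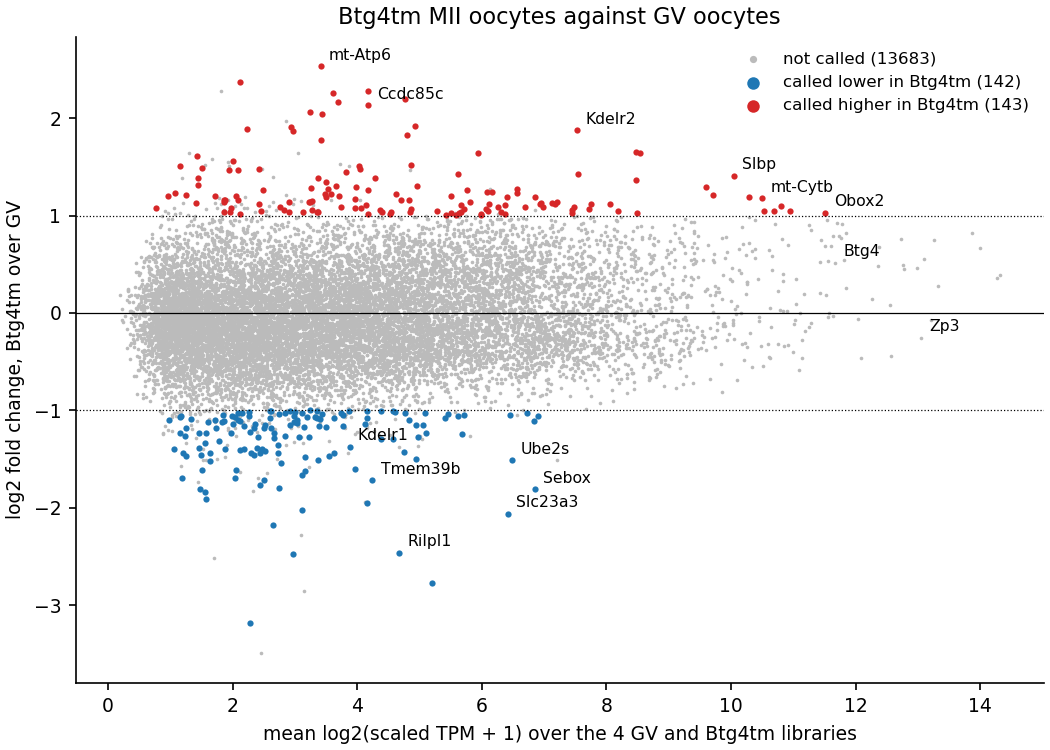
Log2 fold change of Btg4tm over GV against the mean log2(scaled TPM + 1) of the 4 libraries, one point per gene tested, with called genes in colour and dotted lines at the fold threshold. Slc23a3, Sebox and Ube2s stand out among abundant genes below GV, while Kdelr2, Slbp and Obox2 lie above it and Zp3 near 0.

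Transcripts that fell below the GV level in Btg4tm oocytes included genes for a transporter, a homeobox factor, a calcium channel and ubiquitin and Golgi factors. The largest fall among called genes with a known symbol and a mean of at least 10 scaled TPM was that of Rilpl1, an effector of Rab GTPases. It measured 41.2 and 84.1 in GV, 9.42 and 10.4 in Btg4tm, 7.08 and 5.48 in MII and 1.74 and 2.36 in Btg4wt. All MII-stage libraries were below GV. The log2 fold change of Btg4tm over GV was -2.46 with a standard error of 0.31 (adjusted p = 0.0052). Rilpl1 was called higher in Btg4tm than in Btg4wt (1.84, adjusted p = 0.00148) and was not called against MII (0.59, adjusted p = 0.145). Of its exonic bases, 10.5% are shared with another annotated gene, so its level is uncertain.

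Slc23a3, of the nucleobase and ascorbate transporter family, was one of the most abundant transcripts to fall. Its values were 187 and 161 in GV, 46.8 and 35.9 in Btg4tm, 11.9 and 14.0 in MII and 17.8 and 11.97 in Btg4wt, so the Btg4tm libraries stood between GV and the other groups without overlap. The log2 fold change was -2.06 against GV (SE 0.21, adjusted p = 0.00411) and 1.59 against MII (adjusted p = 0.00037). Snai3, a zinc finger repressor of the Snail family, also stood between the groups, at 165 and 176 in GV, 84.3 and 78.8 in Btg4tm and 13.4 and 13.9 in MII, with a log2 fold change of -1.05 against GV (adjusted p = 0.00991) and 2.49 against MII (adjusted p = 1.24e-05). Orai1, the pore subunit of the store-operated calcium channel, was similar, at 154 and 182 in GV, 73.3 and 81.0 in Btg4tm and 16.9 and 15.8 in MII, with a log2 fold change of -1.11 against GV (adjusted p = 0.0129). Eef1akmt1, a lysine methyltransferase of elongation factor eEF1A, fell from 19.3 and 19.2 in GV to 4.48 and 9.31 in Btg4tm, and was at 0 and 0.498 in MII. Eef1akmt1 had a log2 fold change of -1.43 against GV (adjusted p = 0.0293) and 2.62 against MII (adjusted p = 0.000275). Without GV replicate 2 the call was lost for Snai3 (-0.99), Orai1 (-0.97) and Eef1akmt1 (-1.42), without Btg4tm replicate 1 for Orai1 (-1.05) and Eef1akmt1 (-0.99), and without GV replicate 1 for Eef1akmt1 (-1.41).

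Sebox, an oocyte homeobox factor, was below GV with values that overlapped among the MII-stage groups. It measured 173 and 264 in GV, 66.0 and 55.4 in Btg4tm, 63.5 and 58.8 in MII and 73.4 and 64.9 in Btg4wt. GV stood above all 6 other libraries, which overlapped among groups. The log2 fold change was -1.80 against GV (SE 0.19, adjusted p = 0.00432) and -0.01 against MII (adjusted p = 0.958). H2bu2, a histone H2B gene, went from 12.6 and 21.0 in GV to 5.82 and 1.67 in Btg4tm, with 3.43 and 4.09 in MII, and its log2 fold change of -2.02 against GV (adjusted p = 0.0338) lost the call without any one of GV replicate 1 (-2.35), GV replicate 2 (-1.66) and Btg4tm replicate 2 (-1.36). Mettl7a2, a methyltransferase-like gene, was at 35.8 and 31.9 in GV, 9.03 and 7.16 in Btg4tm, 15.8 and 14.5 in MII and 8.60 and 10.1 in Btg4wt. The Btg4tm libraries were below both MII libraries, with a log2 fold change of -1.94 against GV (adjusted p = 0.00359) and -0.83 against MII (adjusted p = 0.00359). Of its exonic bases, 28.2% are shared with another gene, so its share of reads is uncertain.

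Another set of transcripts was lower in Btg4tm than in GV while MII and Btg4wt were not called lower. Ube2s, the E2 enzyme that extends ubiquitin chains for the anaphase-promoting complex, measured 133 and 171 in GV, 49.5 and 55.2 in Btg4tm, 174 and 171 in MII and 166 and 180 in Btg4wt. Both Btg4tm libraries lay below all 6 others. Ube2s had a log2 fold change of -1.51 against GV (SE 0.14, adjusted p = 0.00391), -1.70 against MII (adjusted p = 2.7e-05) and -1.71 against Btg4wt (adjusted p = 2.87e-05).

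Tmem39b, a transmembrane protein gene, measured 24.9 and 44.4 in GV, 6.35 and 13.8 in Btg4tm, 37.0 and 48.0 in MII and 55.2 and 48.6 in Btg4wt, with a log2 fold change of -1.72 against GV (adjusted p = 0.0214). Kdelr1, a receptor that returns escaped proteins from the Golgi to the endoplasmic reticulum, measured 17.4 and 29.3 in GV, 6.43 and 10.2 in Btg4tm, 29.0 and 27.5 in MII and 39.2 and 36.5 in Btg4wt, with a log2 fold change of -1.37 against GV (adjusted p = 0.0166). For both genes the Btg4tm libraries were the lowest of all 8. Cldn4, a tight junction claudin, was at 36.5 and 50.1 in GV, 17.7 and 13.3 in Btg4tm, 34.2 and 37.4 in MII and 23.4 and 25.9 in Btg4wt, and its log2 fold change was -1.42 against GV (adjusted p = 0.00559) and -1.17 against MII (adjusted p = 0.00118). Kdm4a, a histone lysine demethylase, went opposite ways in the groups, from 10.6 and 17.2 in GV to 4.52 and 5.54 in Btg4tm but to 42.6 and 39.5 in MII and 46.5 and 44.9 in Btg4wt. Its log2 fold change over GV was -1.27 in Btg4tm (adjusted p = 0.0107) and 1.53 in MII, and the test of Btg4tm against MII gave -2.81 (adjusted p = 2.12e-05). Without GV replicate 2 the calls against GV of Tmem39b (-1.29), Kdelr1 (-0.99) and Kdm4a (-0.93) were lost, as were those of Tmem39b (-1.23) and Kdelr1 (-1.09) without Btg4tm replicate 1.

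**Figure D3:**
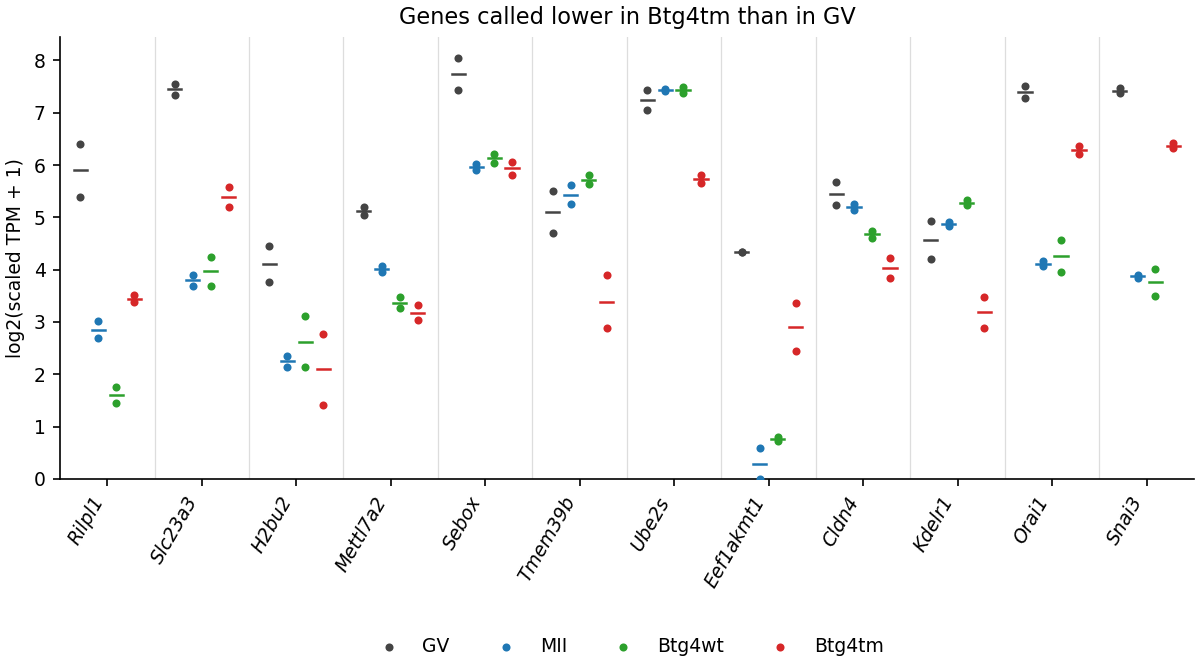
Log2(scaled TPM + 1) in each library for the genes named as largest or most abundant falls, ordered by the size of the fall, with points for libraries and bars for group means. Slc23a3, Snai3 and Orai1 in Btg4tm stand between GV and MII, Sebox overlaps among the MII-stage groups, and Ube2s, Tmem39b and Kdelr1 are low in Btg4tm alone, with 49.5 and 55.2 scaled TPM for Ube2s.

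Over the 142 genes called lower, which were chosen by this contrast, the median level was 10.2 scaled TPM in GV and 3.32 in Btg4tm. Their median log2 fold change over GV was -1.18 in Btg4tm, -1.16 in MII and -1.27 in Btg4wt. Their quartiles over GV ran from -1.44 to -1.07 in Btg4tm and from -2.06 to -0.36 in MII. Of them, 43 had predicted or clone symbols and 48 had a mean of at least 10 scaled TPM. Among the 135 matched to the GENCODE annotation, 71.9% were protein coding and 9.63% pseudogenes, against 81.2% and 6.66% over all tested genes, and the median longest transcript was 1831 nucleotides against 2800.

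Transcripts above the GV level in Btg4tm oocytes included genes for Golgi traffic, histone demethylation, oocyte homeobox factors and the mitochondrial genome. Kdelr2, a second KDEL receptor, rose from 108 and 84.4 in GV to 332 and 377 in Btg4tm, and measured 495 and 506 in MII and 410 and 446 in Btg4wt. GV lay below all MII-stage libraries, and Btg4tm below MII and Btg4wt. Against GV its log2 fold change was 1.88 (SE 0.13, adjusted p = 0.00203). It was -0.50 against MII (adjusted p = 0.0128) and -0.27 against Btg4wt (adjusted p = 0.118). Its paralogue Kdelr1 was called lower in the same libraries.

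Ric1, a subunit of the exchange factor for the Golgi GTPase Rab6, was at 14.9 and 12.7 in GV, 48.5 and 54.2 in Btg4tm, 77.9 and 76.9 in MII and 64.7 and 64.4 in Btg4wt. Kdm6b, a demethylase of repressive histone methylation, was at 37.5 and 30.5 in GV, 93.7 and 123.4 in Btg4tm, 157 and 144 in MII and 133 and 151 in Btg4wt. For both genes Btg4tm stood between GV and the other MII-stage groups without overlap. The tests against Btg4wt gave -0.33 for Ric1 (adjusted p = 0.0526) and -0.39 for Kdm6b (adjusted p = 0.0737), so these did not separate the 2 injected groups. Against MII they gave -0.58 for Ric1 (adjusted p = 0.00416) and -0.48 for Kdm6b (adjusted p = 0.0365). The log2 fold changes against GV were 1.82 for Ric1 (SE 0.12, adjusted p = 0.002) and 1.64 for Kdm6b (SE 0.16, adjusted p = 0.00411). Pan3, the partner of the Pan2 deadenylase, had the same order, with 11.5 and 10.5 in GV, 27.1 and 33.9 in Btg4tm, 53.6 and 50.4 in MII and 49.6 and 49.5 in Btg4wt. For Pan3 it was 1.38 against GV (adjusted p = 0.00411) and -0.76 against MII (adjusted p = 0.00231).

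Some of the most abundant transcripts called higher were oocyte homeobox genes of the Obox family. Obox2, an oocyte-specific homeobox gene, measured 2059 and 2035 in GV, 4119 and 4251 in Btg4tm, 3911 and 4340 in MII and 4218 and 4849 in Btg4wt. GV stood below the other 6 libraries, whose groups overlapped, and the log2 fold change was 1.03 against GV (SE 0.11, 95% interval 0.78 to 1.28, adjusted p = 0.00432) and 0.02 against MII (adjusted p = 0.88). Obox1 was at 1385 and 1367 in GV, 2627 and 3097 in Btg4tm, 2102 and 2273 in MII and 2257 and 3181 in Btg4wt. Its Btg4tm libraries lay above both MII libraries, with a log2 fold change over GV of 1.05 in Btg4tm (adjusted p = 0.00844) and 0.67 in MII, which was not called, and a difference of 0.38 between Btg4tm and MII (95% interval 0.01 to 0.76, adjusted p = 0.0796). Obox5 was at 1253 and 1198 in GV, 2320 and 2950 in Btg4tm, 2741 and 2955 in MII and 3055 and 3937 in Btg4wt, a log2 fold change of 1.09 over GV (adjusted p = 0.00642) and -0.12 over MII (95% interval -0.48 to 0.23, adjusted p = 0.54). These paralogues are similar in sequence, so reads may be split between them or dropped. Laptm4b, a lysosomal membrane protein gene, was at 1243 and 1052 in GV, 2399 and 2334 in Btg4tm and 2324 and 2348 in MII, a log2 fold change of 1.05 against GV (adjusted p = 0.00432). These 4 genes were close to the fold threshold. On TPM as deposited they were at 0.87 for Obox2, 0.89 for Obox1, 0.93 for Obox5 and 0.89 for Laptm4b, and were no longer called. The calls were also lost without Btg4tm replicate 2 for Obox2 (0.99), Obox1 (0.92) and Obox5 (0.91), and without GV replicate 2 for Obox1 (1.06) and Laptm4b (0.95).

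Slbp, which binds the stem-loop of histone mRNAs, rose from 620 and 674 in GV to 1729 and 1706 in Btg4tm, with 1440 and 1475 in MII and 1302 and 1905 in Btg4wt. Its log2 fold change was 1.41 against GV (SE 0.16, adjusted p = 0.00466) and 0.24 against MII (adjusted p = 0.254), and 7.8% of its exonic bases are shared with another gene. Foxo3, a forkhead factor that keeps primordial follicles dormant, was at 46.5 and 44.1 in GV, 105 and 112 in Btg4tm, 109 and 99.5 in MII and 111 and 118 in Btg4wt, a log2 fold change of 1.25 against GV (SE 0.10, adjusted p = 0.00359). For both, GV stood below all other libraries. The Btg4tm libraries lay above MII and within the range of Btg4wt for Slbp, and overlapped both groups for Foxo3. After scaling to the mitochondrial genes the fold changes were 0.78 for Slbp, 0.63 for Foxo3 and 0.80 for Pan3, and none of these was called.

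A few transcripts rose in Btg4tm while MII and Btg4wt were not called higher than GV. Ccdc85c, of the coiled-coil DIPA family, measured 9.12 and 6.41 in GV, 9.60 and 9.63 in MII, 10.3 and 9.77 in Btg4wt and 30.8 and 44.2 in Btg4tm. Alyref, an adapter of mRNA export, measured 5.72 and 3.97 in GV, 3.88 and 6.01 in MII, 2.42 and 2.06 in Btg4wt and 16.6 and 21.1 in Btg4tm. For both genes the Btg4tm libraries lay above all 6 others. The log2 fold change of Ccdc85c was 2.13 against GV (SE 0.22, adjusted p = 0.00411), 1.84 against MII (adjusted p = 0.000211) and 1.78 against Btg4wt (adjusted p = 0.000254). That of Alyref was 1.77 against GV (SE 0.25, adjusted p = 0.00664), 1.75 against MII (adjusted p = 0.000625) and 2.61 against Btg4wt (adjusted p = 7.86e-05), and without GV replicate 2 it was 1.57 and not called. Crls1, the cardiolipin synthase of mitochondria, was at 23.3 and 5.60 in GV, 51.0 and 63.3 in Btg4tm, 20.1 and 31.0 in MII and 34.8 and 17.8 in Btg4wt. Its log2 fold change of 2.19 against GV (adjusted p = 0.0423) went with 1.16 against MII (adjusted p = 0.116), and the call was lost without GV replicate 2 (1.27), Btg4tm replicate 1 (2.33) or Btg4tm replicate 2 (2.03).

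**Figure D4:**
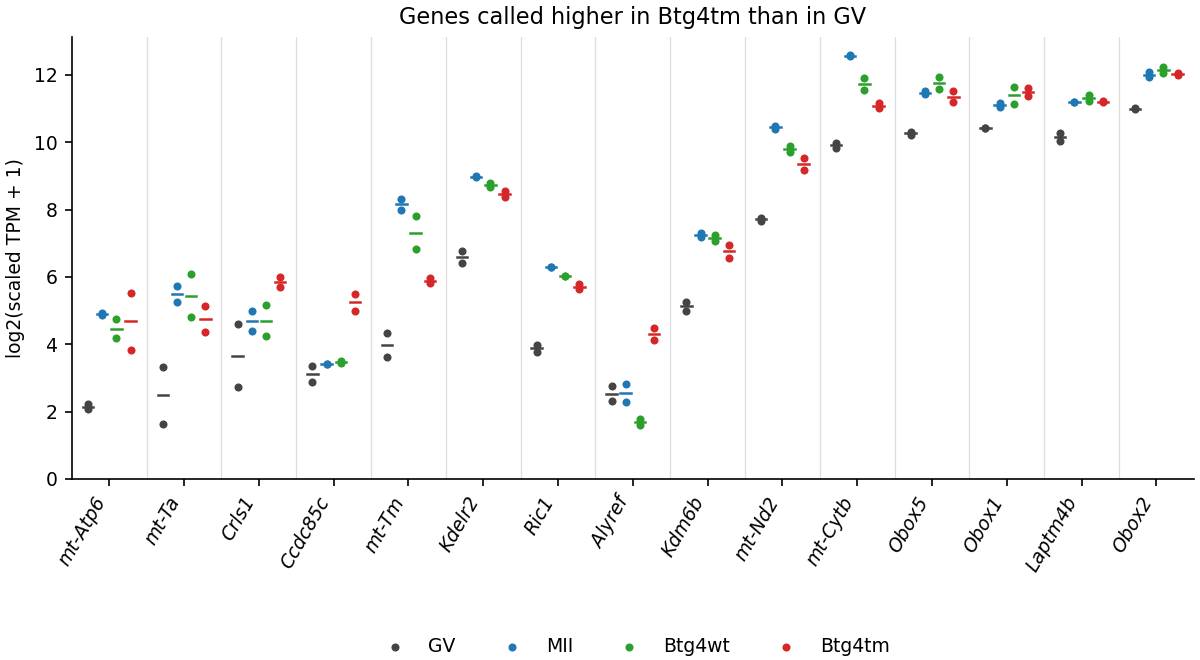
Log2(scaled TPM + 1) in each library for the genes named as largest or most abundant rises, ordered by the size of the rise, with points for libraries and bars for group means. Ccdc85c and Alyref are high in Btg4tm alone (30.8 and 44.2 scaled TPM for Ccdc85c). Kdelr2, Ric1 and Kdm6b stand between GV and MII, and Obox2 overlaps among the MII-stage groups. Obox1 in Btg4tm (2627 and 3097) lies above MII (2102 and 2273), without a call, and within the range of Btg4wt (2257 and 3181).

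Among the gene lists, the mitochondrial genome had the most rises, with 7 of 19 tested members called higher (36.8%, against 1.02% of all genes) and 0 lower. The count was 4 without GV replicate 2 (21.1%, against 0.594% of all genes) and 6 to 8 without any one of the other 3 libraries. The 7 were mt-Atp6, mt-Atp8, mt-Cytb, mt-Nd2, mt-Nd6, mt-Ta and mt-Tm. Among them mt-Atp6 shares bases with mt-Atp8, and mt-Tm directly adjoins mt-Nd2, so the 7 are not fully separate features. The median log2 fold change over GV was 1.06 in Btg4tm, 2.52 in MII and 2.02 in Btg4wt. All 19 were called higher in MII than in GV (against 12.5% of all genes), and 14 were lower in Btg4tm than in MII (against 7.36% of all genes). The 19 genes summed to 5864 and 5856 scaled TPM in GV, 7699 and 10736 in Btg4tm, 27738 and 26793 in MII and 20651 and 18078 in Btg4wt.

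The rise was uneven over the mitochondrial transcripts. mt-Cytb, the cytochrome b gene, measured 909 and 1014 in GV, 2051 and 2306 in Btg4tm, 5987 and 6142 in MII and 3858 and 3002 in Btg4wt, with a log2 fold change of 1.18 against GV (SE 0.14, adjusted p = 0.00487) and -1.48 against MII (adjusted p = 5.94e-05). mt-Nd2, a subunit of complex I, measured 216 and 202 in GV, 574 and 745 in Btg4tm and 1353 and 1422 in MII, a log2 fold change of 1.64 against GV (adjusted p = 0.00352). Both stood between GV and MII without overlap. After quantile normalization mt-Cytb was at 0.98 and not called. The large ribosomal RNA mt-Rnr2 was at 2188 and 2115 in GV and 1582 and 2505 in Btg4tm, which overlap, and at 5920 and 5073 in MII. Its log2 fold change against GV was -0.11 (95% interval -0.56 to 0.34, adjusted p = 0.743), and 0.20 without Btg4tm replicate 1.

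The largest mitochondrial differences were in genes with low or scattered values. mt-Atp6, a subunit of the ATP synthase, was at 3.66 and 3.19 in GV, 45.2 and 13.2 in Btg4tm and 29.4 and 28.4 in MII, a log2 fold change of 2.53 against GV (SE 0.46, adjusted p = 0.0142). The tRNA gene mt-Ta was at 2.12 and 9.01 in GV and 19.4 and 34.1 in Btg4tm (2.26, SE 0.58, adjusted p = 0.0439), and mt-Tm at 19.1 and 11.3 in GV and 61.4 and 55.3 in Btg4tm (1.92, SE 0.32, adjusted p = 0.0109). Of the exonic bases of mt-Atp6, 6.46% are shared with mt-Atp8 and mt-Co3. The call of mt-Atp6 was lost without either GV library (2.62 without replicate 1 and 2.47 without replicate 2). That of mt-Ta was lost without GV replicate 1 (1.43), Btg4tm replicate 1 (2.63) or Btg4tm replicate 2 (1.86), and that of mt-Tm without GV replicate 2 (1.58) or Btg4tm replicate 1 (1.83). The values scaled to the mitochondrial genes themselves kept 5 of the 19 called higher, at a median of 0.55 beside -0.64 over all genes.

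The lists with the largest declines in MII oocytes had medians much closer to GV in Btg4tm oocytes. Of 77 cytosolic ribosomal protein genes tested, 1 was called lower (1.30%, against 1.02% of all genes) and 0 higher, while 66 were lower in MII and 68 in Btg4wt. Of the 77, 52 had an unadjusted p under 0.05 (67.5%, against 29.7% of all genes). Their median log2 fold change over GV was -0.53 in Btg4tm, -3.05 in MII and -2.88 in Btg4wt, beside a median over all genes of -0.08 in Btg4tm. In Btg4tm, 74 of the 77 were below 0, and 76, 73 and 77 were under TPM as deposited, quantile and mitochondrial scaling. How many were called depended on the scaling and on 1 library. On TPM as deposited 9 were called lower (11.7%, against 2.05% of all genes) at a median of -0.69, after quantile normalization 3 (3.90%, against 0.709%) at -0.58, and after mitochondrial scaling 53 (68.8%, against 21.3%) at -1.16. Without Btg4tm replicate 2 there were 7 (9.09%, against 1.27%) at a median of -0.70, and without any one of the other 3 libraries 0, at medians from -0.56 to -0.38. The summed level was 13774 and 14560 in GV, 9405 and 11375 in Btg4tm and 3004 and 3093 in MII, so the groups did not overlap. The test of Btg4tm against MII called 61 of the 77 higher, beside 19.3% of all genes.

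The called member was Rps27, at 160 and 142 in GV, 62.3 and 86.7 in Btg4tm and 3.17 and 5.12 in MII. Rps27 differed by -1.02 on the log2 scale from GV (adjusted p = 0.0248) and 3.88 against MII (adjusted p = 4.77e-06), and the call against GV was lost without GV replicate 1 (-0.93), GV replicate 2 (-1.09) or Btg4tm replicate 1 (-0.81). Rpl5, another abundant member, was at 725 and 729 in GV and 629 and 566 in Btg4tm, a log2 difference of -0.28 (95% interval -0.92 to 0.35, adjusted p = 0.533). It was at 68.8 and 89.4 in MII. With 26.7% of its exonic bases shared with another gene, its level is uncertain.

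With the median-of-ratios scaling, the nuclear genes of mitochondria and the proteasome gave 1 call. Of 82 respiratory chain and ATP synthase genes, 0 were called in Btg4tm against GV in either direction by limma (18 at an unadjusted p under 0.05, or 22%, against 29.7% of all genes), with a median of -0.19, while 62 were lower in MII at a median of -2.43. Of 76 mitochondrial ribosomal proteins, 0 were called (29 at an unadjusted p under 0.05, or 38.2%), with a median of -0.31 against -1.83 in MII, and of 20 Timm and Tomm import genes 0 were called (8 at an unadjusted p under 0.05, or 40%), with a median of -0.29 against -1.52. After scaling to the mitochondrial genes, where 21.3% of all genes were called lower, 21 of the 82 respiratory genes were lower (25.6%) at a median of -0.81, 30 of the 76 mitochondrial ribosomal proteins (39.5%) at -0.94 and 7 of the 20 import genes (35%) at -0.86. On TPM as deposited 2, 0 and 1 were lower. Leaving out 1 library moved the median of the respiratory list between -0.36 (without Btg4tm replicate 2) and -0.06 (without Btg4tm replicate 1). Ndufb11, a complex I subunit, was at 881 and 772 in GV, 608 and 796 in Btg4tm and 45.0 and 58.8 in MII, so Btg4tm overlapped GV (-0.25, 95% interval -0.85 to 0.36, adjusted p = 0.574), though 12.9% of its exonic bases are shared with another gene. Mrps33, a mitochondrial ribosomal protein, was at 569 and 493 in GV, 468 and 450 in Btg4tm and 154 and 164 in MII (-0.21, adjusted p = 0.323). Among 43 proteasome genes, Psmd13 of the regulatory particle was called lower (2.33%), at 3.73 and 4.69 in GV and 1.59 and 1.44 in Btg4tm (-1.05, adjusted p = 0.0256), and the call was lost without any one of the 4 libraries (-1.17 to -0.90). It shares 10.1% of its exonic bases with another gene. Over all genes, 1.02% were called lower in Btg4tm than in GV. The median of the proteasome list was -0.12 in Btg4tm and -1.65 in MII.

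**Figure D5:**
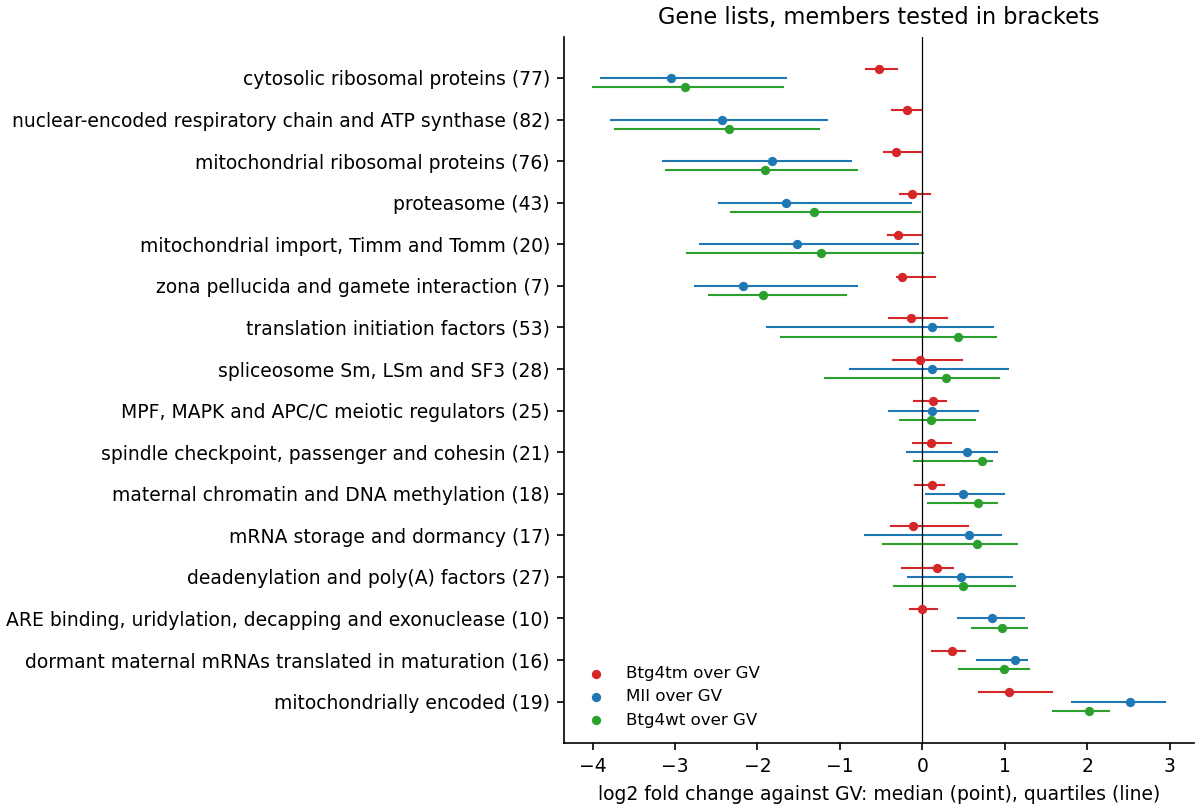
Median log2 fold change against GV (points) and quartiles (lines) of 16 gene lists in Btg4tm, MII and Btg4wt, with the number of members tested in brackets. Cytosolic ribosomal proteins sit at -0.53 in Btg4tm against -3.05 in MII, and mitochondrially encoded genes at 1.06 against 2.52.

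Zona pellucida and gamete interaction genes held no call. Of 7 tested, 0 were called by limma and 0 had an unadjusted p under 0.05, with a median of -0.25 in Btg4tm, -2.17 in MII and -1.93 in Btg4wt. Each p-value uses a spread pooled over all groups, so it also holds the scatter within MII and within Btg4wt. Zp3, a zona pellucida gene, was at 9989 and 8544 in GV, 7927 and 7596 in Btg4tm, 943 and 2503 in MII and 2221 and 1007 in Btg4wt. The log2 difference from GV was -0.25 with an interval of -1.31 to 0.80 (adjusted p = 0.751), which does not exclude a 2-fold fall. For Zp3 the pairs of MII and of Btg4wt libraries lay further apart on the log2 scale than those of GV and Btg4tm. Scatter in groups outside the comparison thus widened this interval. Gtsf1, a partner of PIWI proteins, was at 1924 and 1546 in GV and 1412 and 1362 in Btg4tm (-0.31, interval -0.58 to -0.05, adjusted p = 0.112) and at 289 and 292 in MII. For both genes Btg4tm was below both GV libraries and above both MII libraries, with 2.34 for Zp3 (adjusted p = 0.00324) and 2.25 for Gtsf1 (adjusted p = 2.88e-06) against MII.

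Factors of mRNA storage and decay gave 1 call. Of 17 storage and dormancy genes 0 were called (11 at an unadjusted p under 0.05, or 64.7%, against 29.7% of all genes), with a median of -0.12. Zar1l, an RNA-binding factor of stored maternal mRNAs, measured 1072 and 1091 in GV, 1038 and 983 in Btg4tm, 49.4 and 39.7 in MII and 100 and 92.5 in Btg4wt. Its log2 difference was -0.10 from GV (interval -0.37 to 0.17, adjusted p = 0.62) and 4.48 from MII (adjusted p = 4.73e-07). Of 27 deadenylation and poly(A) factors, Pan3 was called higher (3.70%, against 1.02%), with a median of 0.17 beside 0.47 in MII. Pabpn1l, the poly(A)-binding partner through which BTG4 reaches mRNA, was at 2693 and 2628 in GV, 2118 and 1491 in Btg4tm, 2294 and 2072 in MII and 2115 and 1678 in Btg4wt (-0.58 against GV, adjusted p = 0.0699), and was called lower after quantile normalization (-1.10) and mitochondrial scaling (-1.22). Of 10 genes for ARE binding, uridylation, decapping and exonucleases 0 were called (1 at an unadjusted p under 0.05, or 10%), with a median of -0.01 in Btg4tm against 0.85 in MII.

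Dormant mRNAs that are translated in maturation had a median between GV and MII. Of 16 tested, Slbp was called higher (6.25%, against 1.02%), and 12 were above 0, with a median of 0.36 in Btg4tm, 1.13 in MII and 1.0 in Btg4wt. After scaling to the mitochondrial genes the median was -0.27, with 3 above 0. Ccnb1, cyclin B1, was at 1669 and 1502 in GV, 2240 and 1960 in Btg4tm and 3211 and 3561 in MII, without overlap (0.40 against GV, adjusted p = 0.057, and -0.69 against MII, adjusted p = 0.00128). The difference from GV was -0.23 after scaling to the mitochondrial genes.

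Cell cycle and chromatin genes gave 2 calls, both lower. Of 25 genes for MPF, MAPK and the anaphase-promoting complex, Wee1, the kinase that inhibits CDK1, was called lower (4%, against 1.02% of all genes). Wee1 was at 12.5 and 14.4 in GV, 5.16 and 7.39 in Btg4tm and 4.97 and 5.10 in MII. The log2 fold change of Wee1 was -1.003 against GV (adjusted p = 0.0195), at the threshold, and was not called without GV replicate 1 (-1.08), GV replicate 2 (-0.89) or Btg4tm replicate 1 (-0.80). Of 21 spindle checkpoint, passenger and cohesin genes 0 were called (8 at an unadjusted p under 0.05, or 38.1%, against 29.7% of all genes). Pttg1, the securin gene, was at 5797 and 4687 in GV, 8113 and 9562 in Btg4tm and 15572 and 14688 in MII (0.76 against GV, adjusted p = 0.0158). Birc5, survivin, was at 952 and 906 in GV, 798 and 849 in Btg4tm and 419 and 403 in MII (-0.17 against GV, adjusted p = 0.228, and 1.0 against MII, adjusted p = 4.62e-05). Of 18 maternal chromatin genes Kdm4a was called lower (5.56%, against 1.02% of all genes). The most abundant, Dppa3, was at 14249 and 11664 in GV, 21486 and 19602 in Btg4tm and 17114 and 19622 in MII (0.67 against GV, adjusted p = 0.0213).

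Oocyte factors gave 1 call. Among 7 transcription factors of follicle growth, Foxo3 was called higher (14.3%, against 1.02% of all genes). Nobox was at 1490 and 1302 in GV, 1061 and 943 in Btg4tm and 410 and 452 in MII. Nobox differed from GV by -0.48 (adjusted p = 0.0317), and Lhx8 by -0.23 (adjusted p = 0.353). Of 8 oocyte-secreted factors with KIT and of 8 subcortical maternal complex genes 0 were called by limma (5 and 3 at an unadjusted p under 0.05, or 62.5% and 37.5%, against 29.7% of all genes), with medians of 0.06 and -0.06. Gdf9 was at 6424 and 5669 in GV and 9075 and 7462 in Btg4tm (0.45, adjusted p = 0.0626). Zbed3 of the maternal complex was at 8623 and 10987 in GV, 8135 and 10469 in Btg4tm, 21817 and 22263 in MII and 22290 and 21655 in Btg4wt, so Btg4tm overlapped GV and lay below both other groups (-0.08 against GV, adjusted p = 0.786, and -1.26 against MII, adjusted p = 0.000326).

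The remaining lists held no call in Btg4tm against GV by limma except 1 among histones. Medians were -0.03 over 28 spliceosome genes, -0.26 over 30 RNA polymerase subunits and -0.14 over 53 translation initiation factors, of which 17 (60.7%), 11 (36.7%) and 29 (54.7%) had an unadjusted p under 0.05, against 29.7% of all genes. Snrpe, a core spliceosome protein, was at 226 and 236 in GV, 328 and 402 in Btg4tm and 664 and 626 in MII (0.65 against GV, adjusted p = 0.0137). The histone list was written out again with current symbols after the tables were seen. Of 19 tested 1 (H2bu2) was called lower (5.26%, against 1.02% of all genes), with a median of -0.28.

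Calls within the other lists also moved with the scaling. After scaling to the mitochondrial genes, beside 21.3% of all genes, the genes called lower were 18 of 53 translation initiation factors (34.0%), 11 of 30 RNA polymerase subunits (36.7%), 8 of 19 histones (42.1%), 7 of 28 spliceosome genes (25%), 7 of 43 proteasome genes (16.3%), 6 of 27 deadenylation and poly(A) factors (22.2%), 5 of 17 storage genes (29.4%) and 0 to 3 in each of the remaining lists named above. On TPM as deposited, 3 translation initiation factors, 1 storage gene and 1 spliceosome gene were called lower. Without Btg4tm replicate 1, 2 translation initiation factors were lower and 3 spliceosome genes higher, and without GV replicate 1, 2 follicle transcription factors and 2 deadenylation factors were higher.

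Over the 143 genes called higher, which were chosen by this contrast, the median level was 13.5 scaled TPM in GV and 32.3 in Btg4tm. Their median log2 fold change over GV was 1.16 in Btg4tm, 1.44 in MII and 1.29 in Btg4wt. Of them, 38 had predicted or clone symbols and 101 had a mean of at least 10 scaled TPM. Among the 142 matched to the annotation, 72.5% were protein coding and 15.5% pseudogenes, against 81.2% and 6.66% over all tested genes, and the median longest transcript was 2147 nucleotides.

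The 3′ ends of called genes were searched for a CPE (TTTTAT or TTTTAAT, forward strand) in the last 200 bases of the longest coding transcript. This window could be read for 98 nuclear protein-coding genes called higher and 97 called lower, and for 11183 of the 11209 tested. A CPE was present in 49.0% of the genes called higher, 17.5% of those called lower and 29.1% of all tested. The window lay wholly in the annotated 3′ UTR for 91.8%, 79.4% and 87.8% of these genes, and otherwise reached into coding sequence. The windows differed in base composition in the same order, with a median GC content of 33.3% in genes called higher, 46.5% in those called lower and 39.5% in all, and the part of base composition in these shares was not tested. The polyadenylation signal AATAAA was in 84.7%, 56.7% and 68.9%, the Pumilio element TGTANATA in 10.2%, 5.16% and 7.85%, and the AU-rich element TATTTAT in 8.16%, 6.19% and 7.26%. Annotated ends may not be the ends used in oocytes, and a match is a string of letters, not a bound site.

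Windows of 30 bases around the last CPE are shown, with the CPE in capitals. These are from the named genes called higher that had one and from Tmem39b, the searched named gene called lower that had one. They come from GENCODE M21 transcripts on GRCm38, plus strand for Kdelr2 (chr5:143403838-143421901), Obox2 (chr7:15388721-15398545), Obox1 (chr7:15388948-15556866) and Pan3 (chr5:147430161-147548502), and minus strand for Slbp (chr5:33634952-33652574) and Tmem39b (chr4:129676355-129696838). The Kdelr2 element ends 6 bases before the transcript end, and those of Obox2 and Obox1 end 50 bases before it in the same 30 bases.
Kdelr2: taacatcctaaataaacaTTTTATtaaaca
Obox2: taggtcttaattTTTTATtgttagagtata
Obox1: taggtcttaattTTTTATtgttagagtata
Slbp: agaactttgtttTTTTAATgatcagttaat
Pan3: tatagcagtattTTTTAATaaagaattgca
Tmem39b: aagaaaaaagtcttatTTTTATactctgaa
No CPE was found in this window of Ric1, Kdm6b, Foxo3, Ccdc85c, Alyref, Crls1, Obox5 or Laptm4b. Slc23a3, Ube2s, Eef1akmt1 and Rps27, called lower, were not searched for this display, because their annotated 3′ UTR is shorter than the window.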

How the data were processed

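Per the labels and the study's methods, Smart-seq2 libraries were trimmed with Trim Galore 0.6.10, aligned to GRCm38 with HISAT2 2.2.0 and a GENCODE annotation, and counted on exons without strand by featureCounts 2.0.6. Reads of low mapping quality were dropped, so near-identical paralogues lose reads. The authors deposited TPM per gene symbol, which are shares of a library. The control tables list genes above 0 in at least 3 of 4 libraries and the injection tables in at least 2 of 4, and 1422 and 486 genes listed in one set only were not tested. The gene lengths behind the TPM are not given in the sources used here.

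From the deposited TPM, the libraries were brought to one scale with the median of ratios, and log2(scaled TPM + 1) was fitted with limma 3.58.1 in R 4.3.3 (eBayes with trend) with 1 coefficient per group over all 8 libraries, for genes that reached 1 TPM in 2 libraries or more. The study used a count model, which TPM do not allow. Data with 13968 genes were simulated for Btg4tm against GV with independent normal noise. Of 100 genes changed by a log2 of 1.5, 84 were recovered, and of 100 changed by 2.5, 97 were. In the same data 2 genes left unchanged were called, and a simulation without any change gave 0 calls. The changed genes were drawn only from those above a minimum mean level in GV. Recovery at low levels, or of changes under a log2 of 1.5, was thus not simulated.

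Named genes are those the study names for this experiment (Btg4, Zp3, Gtsf1, Pabpn1l) and the 5 most abundant called each way. In each list the largest called fall and rise and the 2 most abundant members were named. The 10 largest falls and 10 largest rises were also named, among called genes averaging 10 scaled TPM or more without a predicted symbol. These falls and rises also had to go the same way in every pair of a Btg4tm and a GV library. Their lack of overlap with GV was thus set by the choice. mt-Atp8 and mt-Nd6 were named after their values were seen. Members and lists were chosen with earlier results of these data known. Positions, lengths and sequences came from GENCODE M21 on GRCm38, where 13663 of 13968 symbols matched and 151 by another symbol. Alternatives were TPM as deposited, quantile normalization, mitochondrial scaling, no filter or one at 5 TPM, a smaller pseudocount (0.1), a replicate block, no trend, only the 4 libraries compared, no minimum fold, an adjusted p-value under 0.01 and leaving out each library.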

Additional observations from a re-analysis of the deposited data

How the results depend on the processing

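The named genes Rilpl1, Slc23a3, Mettl7a2, Sebox, Ube2s, Cldn4, Kdelr2, Ric1, Kdm6b, Ccdc85c and mt-Nd2 kept their call against GV under all 15 alternatives. Over the named genes, 711 of 824 alternative values stayed on their side of the threshold, 98 lost a call, 8 gained one and 7 changed sign, none of these 7 a called gene. The changes of sign were Btg4 (-0.12), Ccnb1 (-0.23) and Gdf9 (-0.19) after mitochondrial scaling, mt-Rnr2 without Btg4tm replicate 1 (0.20, with -0.46 to 0.20 over the libraries left out), and Zbed3 with only the 4 libraries compared (0.0004), without GV replicate 2 (0.12) and without Btg4tm replicate 1 (0.09), where leaving out 1 library gave -0.27 to 0.12.

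Counts called lower and higher in Btg4tm against GV were 287 and 80 on TPM as deposited, 2972 and 38 with mitochondrial scaling, 521 and 1070 with no minimum fold and 33 and 75 at an adjusted p under 0.01, and 87 were lower with only the 4 libraries compared. Leaving out 1 library gave 24 to 178 lower and 83 to 202 higher, and left 1 library in a group, whose spread is assumed to be that of the others. Genes at least 2-fold apart in every pair were 101 lower and 33 higher as deposited, 885 and 4 with mitochondrial scaling and 175 and 110 with a pseudocount of 0.1, and 137 to 264 lower and 119 to 196 higher with 1 library left out, where fewer pairs are asked. Against MII, mitochondrial scaling gave 10 lower and 8550 higher, quantile normalization 1854 lower and no minimum fold 3346 lower. Against Btg4wt, the same settings gave 69 lower and 6089 higher, 1778 lower and 3251 lower. In MII against GV, mitochondrial scaling gave 11403 lower and 7 higher, and 1145, 3102 and 4168 were higher as deposited, with quantile normalization and with no minimum fold. In Btg4wt against GV, 9063 were lower and 9 higher with mitochondrial scaling, and 2891 and 4109 higher with quantile normalization and no minimum fold. Mitochondrial scaling divides each library by the sum of its mitochondrially encoded genes. That sum was 0.623% and 0.648% of TPM in GV and 0.762% and 1.02% in Btg4tm. It was 2.70% and 2.60% in MII and 2.05% and 1.75% in Btg4wt. A larger sum lowers all values of a library by the division itself. Why the sums differ, and the cause of the other shifts, was not tested.

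The labels number replicates. Over genes, the deviations of same-numbered libraries correlated at 0.0405 between GV and Btg4tm. This shows little shared deviation, but it cannot tell whether same-numbered libraries came from the same collection. The replicate block gave 140 lower and 145 higher.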

Other observations

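Some transcripts could not be tested because 1 set of tables lists them. Among the 486 genes of the injection tables only, 10 had a mean of at least 10 TPM in Btg4tm, with TPM as deposited. The highest was the predicted gene Gm3788, at 47.1 and 67.6 in Btg4tm and 2.02 and 5.27 in Btg4wt, followed by the mitochondrial tRNA mt-Tn, at 34.2 and 66.7 in Btg4tm and 61.9 and 50.5 in Btg4wt. Gm7825 was at 48.3 and 43.5 in Btg4tm and 4.29 and 1.15 in Btg4wt.

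Among the 1422 genes of the control tables only, 20 had a mean of at least 10 TPM in GV. Fam25c was the highest, at 39.3 and 59.4 in GV and 1.08 and 0.373 in MII. Gm7550 was at 24.8 and 29.9 in GV and 1.56 and 2.70 in MII. What Btg4tm oocytes hold of these was not analysed here.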
